A study of Mus musculus with 7 samples.

Results

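The genes described here are 10 parts of the circadian clock: Arntl, Clock, Per1, Per2, Per3, Cry1, Cry2, Nr1d1, Nr1d2 and Dbp. They were chosen by name, and every probe that the array annotation assigns to them was taken, which gave 13 of 39429 probes. Cry2, Nr1d2 and Dbp have 2 probes each and the other genes 1. RNA came from C2C12 cells, a mouse muscle line, that were kept for 24 h in serum-free medium with exosomes, which are small vesicles released by cells. The exosomes had been collected from other C2C12 cultures that had received palmitate at 0.5 mmol/l and were then freed of it (EXO-Post Palm, n = 3 recipient cultures) or BSA, the carrier of the fatty acid, alone (EXO-Post BSA, n = 4). All recipient cultures thus received exosomes, and no culture without them was analysed here. The labels call the recipient cells myoblasts, whereas the methods describe differentiated myotubes, and neither gives the clock hour of harvest or a synchronising step, so a phase cannot be assigned to a culture.

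Within a cell the clock is a loop of transcription. BMAL1, the product of Arntl, pairs with CLOCK and activates genes that carry E-box motifs, among them the Per and Cry genes, whose proteins come back to repress the pair, and Nr1d1, Nr1d2 and Dbp. The Nr1d proteins, known as REV-ERB alpha and beta, repress Arntl through motifs they share with the ROR receptors, and DBP activates genes through D-box motifs. In skeletal muscle this loop runs in the fibres themselves, and in cultured cells it runs in each cell on its own until a stimulus such as fresh serum sets the cells to a common phase.

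RefSeq promoter windows on GRCm38.p6, from 250 bases before to 50 bases after a start site, were found for 9 of the 10 genes, in 13 windows. Per2 was not matched. They were searched on both strands for the E-box CACGTG, its variant CACGTT, the D-boxes TTATGTAA and TTACGTAA, the ROR and REV-ERB motif AGGTCA and the cAMP response element TGACGTCA. The stretches below hold the E-box or D-box matches that lie before the start site, and are shown because these are the motifs through which the loop is known to act. They read 5′ to 3′ on the strand of the gene, with matches in capitals.
Per1 (chr11:69098753-69098847, plus strand): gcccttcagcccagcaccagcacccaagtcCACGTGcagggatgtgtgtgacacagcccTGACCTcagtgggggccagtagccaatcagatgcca
Cry1 (chr10:85185079-85185163, minus strand): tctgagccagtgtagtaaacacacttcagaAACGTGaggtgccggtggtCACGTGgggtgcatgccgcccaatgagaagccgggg
Cry2 (chr2:92434200-92434265, minus strand): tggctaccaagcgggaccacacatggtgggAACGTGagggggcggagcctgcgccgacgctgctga
Nr1d1 (chr11:98775378-98775435, minus strand): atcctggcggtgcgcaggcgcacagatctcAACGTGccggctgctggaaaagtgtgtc
Per3 (chr4:151044786-151044900, minus strand): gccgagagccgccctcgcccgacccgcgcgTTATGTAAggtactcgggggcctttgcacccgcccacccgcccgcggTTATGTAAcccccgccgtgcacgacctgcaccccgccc

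In Per1 the E-box began 166 bases before the start, and a reversed AGGTCA followed at 137 bases. Cry1 held the variant, read on the other strand, 79 bases before the start and the E-box itself at 60 bases. Cry2 and Nr1d1 held only the variant, at 166 and 28 bases. Per3 held 2 copies of the D-box TTATGTAA, at 205 and 158 bases. The motif AGGTCA was also found 119 bases before 1 of the 3 start sites of Clock, 77 bases before that of Nr1d2 and 32 bases into the transcript from 1 of the 2 start sites of Arntl. Windows with the E-box or its variant made up 4 of 13, beside 11.4% of 32851 windows of all genes. The share of all windows was 1.06% for the D-boxes, found in 1 of 13, and 16.3% for AGGTCA, found in 4 of 13. The 300-base window of Dbp held none of these letters, nor did any of the 13 windows hold TGACGTCA. A match is a run of letters and not a measured binding site.

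Values are log2 intensities minus the 75th percentile of the array, so that 0 is that percentile. They serve to compare arrays for a given probe, not probes with each other. Probes were tested that the scanner software called well above background in no fewer than 75% of the arrays of either group, which 11 of the 13 clock probes, from 8 genes, fulfilled. Per3 was well above background on 1 of 4 EXO-Post BSA and 2 of 3 EXO-Post Palm arrays, and Cry1 on 2 of 4 and 1 of 3. Their values spanned -5.85 to -3.60 for Per3 and -6.03 to -3.88 for Cry1 over the 7 arrays, and no fold change is given for them. None of the 11 tested probes passed an adjusted p of 0.05 in limma, against 0.533% (115) of all 21589 tested probes. The count of 115 rested on single arrays, being 0 without EXO-Post BSA replicate 1, 44 without replicate 2, 21 without replicate 3, 68 without replicate 4, 7 without EXO-Post Palm replicate 1, 202 without its replicate 2 and 27 without its replicate 3, while that of the clock probes was 0 in each case. None had an unadjusted p under 0.05 either, in limma or in the methods' t-test, a level that 4.85% of all tested probes reached in limma by rising and 5.19% by falling, and none had groups that did not overlap, which 11.3% did. The median log2 fold change of EXO-Post Palm over EXO-Post BSA was -0.04 over the clock probes and -0.02 over all tested probes, and 4 of the 11 were above 0.

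**Figure D1:**
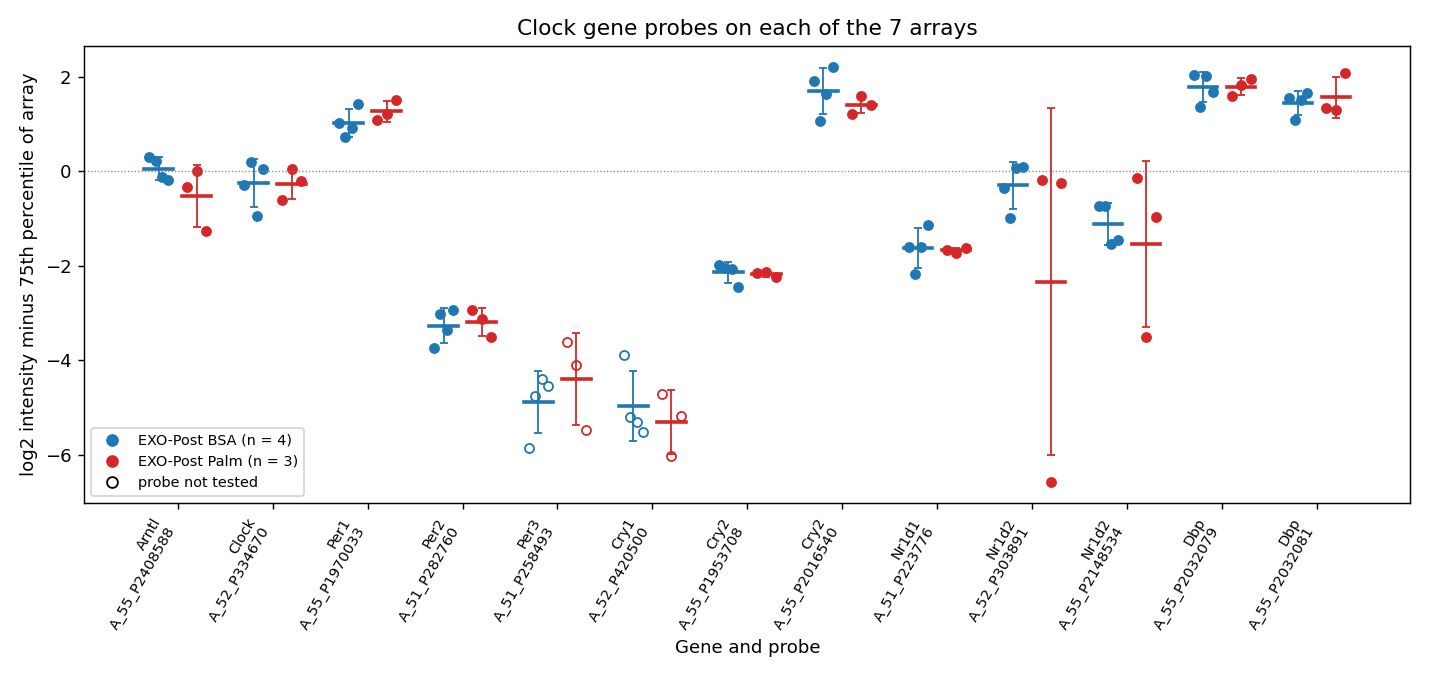
Log2 intensity minus the 75th percentile of the array (y axis) for the 13 clock probes (x axis), with a point for each array, a bar for the group mean and whiskers for the SD. Blue is EXO-Post BSA (n = 4), red is EXO-Post Palm (n = 3), and open points are the 2 probes that were not tested. The groups overlap for every probe, and the low red points of Nr1d2, at -6.58 and -3.51, are EXO-Post Palm replicate 2.

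Of the activators, Arntl was measured by probe A_55_P2408588 (NM_007489, chr7:120457261-120457320 on mm9, plus strand). In the order of the replicate numbers, which all values below follow, it read 0.30, 0.21, -0.13 and -0.18 with EXO-Post BSA and -0.33, 0.01 and -1.27 with EXO-Post Palm. EXO-Post Palm replicate 3 lay below all other arrays, while EXO-Post Palm replicate 2 lay among the EXO-Post BSA values. The group means were 0.05 ± 0.24 (SD, n = 4) and -0.53 ± 0.66 (SD, n = 3). The log2 fold change of -0.58 (SE 0.32, 95% interval -1.30 to 0.14) was the lowest of a clock probe outside Nr1d2, and did not pass the test in limma (adjusted p = 0.595). It was -0.21 without EXO-Post Palm replicate 3. Permuting the group labels over all 35 splits, which can give no p below 0.0286, gave an exact permutation p of 0.114 (2-sided).

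The partner of BMAL1, Clock (A_52_P334670, NM_007715, chr5:76641377-76641436 on mm9, minus strand), read -0.29, 0.20, -0.94 and 0.04 on the EXO-Post BSA arrays and -0.61, 0.04 and -0.22 on the EXO-Post Palm arrays. Its lowest and highest values were both EXO-Post BSA arrays, replicates 3 and 2. The log2 fold change was -0.01 with a 95% interval of -0.72 to 0.69. Arntl and Clock thus had their lowest values on different arrays.

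Of the repressors of the Per family, Per1 (A_55_P1970033, NM_011065, chr11:68923364-68923423 on mm9, plus strand) read 1.01, 0.71, 0.92 and 1.42 on EXO-Post BSA and 1.08, 1.20 and 1.51 on EXO-Post Palm. All 3 EXO-Post Palm values were above those of EXO-Post BSA replicates 1 to 3 and only EXO-Post BSA replicate 4 lay among them. The log2 fold change was 0.25 (SE 0.23, adjusted p = 0.763 in limma). Per2 (A_51_P282760, NM_011066, chr1:93313046-93313105 on mm9, minus strand) read -3.74, -3.02, -3.37 and -2.94 on EXO-Post BSA and -2.94, -3.13 and -3.51 on EXO-Post Palm. The groups of Per2 covered nearly the same range, and its log2 fold change was 0.08 with a 95% interval of -0.52 to 0.67. Without EXO-Post BSA replicate 1 it was -0.08.

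Cry2 encodes the other kind of repressor, and its probes sit on different transcripts. Probe A_55_P2016540 (NM_009963) read 1.90, 1.07, 1.63 and 2.21 on EXO-Post BSA and 1.22, 1.59 and 1.41 on EXO-Post Palm. The EXO-Post Palm values lay inside the EXO-Post BSA range, with a log2 fold change of -0.30 (95% interval -0.95 to 0.36). Probe A_55_P1953708, of the alternative transcript NM_001113333, read -1.98, -2.05, -2.07 and -2.46 on EXO-Post BSA and -2.15, -2.14 and -2.24 on EXO-Post Palm. It moved least over the arrays of the tested clock probes, within a range of 0.48, and its log2 fold change was -0.04. On EXO-Post BSA replicate 4 the probes went opposite ways, the first to its highest value and the second to its lowest. This depended on the scaling. With normexp background correction and the authors' values the first was highest on EXO-Post BSA replicate 1 and the second lowest on EXO-Post Palm replicate 3. After subtraction of the array median the second was lowest on EXO-Post BSA replicate 2.

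The REV-ERB receptors close the loop back to Arntl. Nr1d1 (A_51_P223776, NM_145434, chr11:98630526-98631028 on mm9, minus strand) read -1.61, -2.17, -1.60 and -1.13 on EXO-Post BSA and -1.66, -1.74 and -1.62 on EXO-Post Palm. The 3 EXO-Post Palm arrays agreed within an SD of 0.06, an SD at percentile 2.67 of all tested probes in that group, whereas the EXO-Post BSA arrays had an SD of 0.42. Its log2 fold change was -0.05 (95% interval -0.64 to 0.54). For Nr1d2, probe A_52_P303891 (NM_011584) read -0.36, -0.98, 0.06 and 0.09 on EXO-Post BSA and -0.18, -6.58 and -0.26 on EXO-Post Palm. Probe A_55_P2148534, of BC096461, read -0.74, -0.73, -1.54 and -1.46 on EXO-Post BSA and -0.14, -3.51 and -0.98 on EXO-Post Palm. Both probes were lowest on EXO-Post Palm replicate 2. Apart from that array they differed, since EXO-Post BSA replicates 3 and 4 gave the highest EXO-Post BSA values of the first probe and the lowest of the second.

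With all arrays, the Nr1d2 probes had log2 fold changes of -2.04 (SE 1.38, adjusted p = 0.664 in limma) and -0.43 (SE 0.70, adjusted p = 0.872). Without EXO-Post Palm replicate 2 these were 0.08 (adjusted p = 0.972) and 0.56 (adjusted p = 0.687), so that the sign of each rested on that array. The spots carried no outlier or uniformity mark there, and the processed signals were 6.80 and 56.7, beside 456.99 to 1433.71 and 263.3 to 1469.01 on the other arrays. On the same array, 87 of 18122 probes that were well measured on the other 6 (0.480%) lay more than 3 log2 units below every other array. The corresponding count was 55 on EXO-Post Palm replicate 3, 38 on EXO-Post BSA replicate 4 and 0 to 11 on the others. Among these on EXO-Post Palm replicate 2 was probe A_52_P303891 of Nr1d2 itself, but not A_55_P2148534. Another was the mitochondrial gene COX2, a subunit of cytochrome oxidase, at -5.06 against 5.48 to 7.79 elsewhere. Probe A_52_P303891 was well above background on 4 of 4 EXO-Post BSA and 2 of 3 EXO-Post Palm arrays. It thus passed the filter through EXO-Post BSA alone. The cause of these low values, those of Nr1d2 included, was not tested.

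Dbp, the output factor of the loop, gave values of 2.04, 1.37, 2.02 and 1.68 on EXO-Post BSA and 1.60, 1.82 and 1.95 on EXO-Post Palm with probe A_55_P2032079. Probe A_55_P2032081, of the same transcript NM_016974, gave 1.54, 1.07, 1.50 and 1.64 on EXO-Post BSA and 1.34, 1.29 and 2.07 on EXO-Post Palm. Both were lowest on EXO-Post BSA replicate 2, while the second was highest on EXO-Post Palm replicate 3 and the first was not. The log2 fold changes were 0.01 (95% interval -0.52 to 0.55) and 0.12 (95% interval -0.47 to 0.72). The intervals of all 11 probes included 0.

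**Figure D2:**
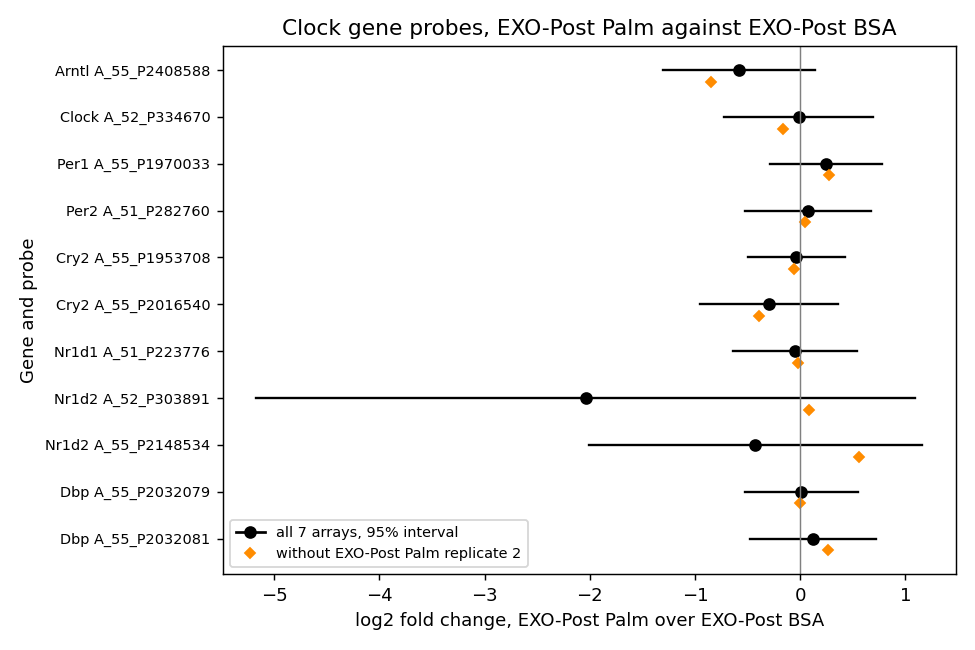
Log2 fold change of EXO-Post Palm over EXO-Post BSA (x axis) for the 11 tested clock probes (y axis), with the limma estimate and its 95% interval over all 7 arrays in black and the estimate without EXO-Post Palm replicate 2 in orange. Every interval includes 0, and Nr1d2 moves from -2.04 to 0.08 and from -0.43 to 0.56 when that array is left out.

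The arrays stood on 4 slides, of which slide 1 (EXO-Post BSA replicates 1 and 2, EXO-Post Palm replicate 1) and slide 3 (EXO-Post BSA replicate 4, EXO-Post Palm replicate 3) held both groups. The difference of EXO-Post Palm from EXO-Post BSA had the same sign on both slides and in the whole set for 5 of the 11 tested probes. For Arntl it was -0.58 on slide 1 and -1.09 on slide 3, and -0.80 (adjusted p = 0.392 in limma) with slide as a block, a fit that takes nothing from EXO-Post BSA replicate 3 and EXO-Post Palm replicate 2, each alone on its slide. For Per1 it was 0.22 and 0.09. Per2 went from 0.44 on slide 1 to -0.56 on slide 3, and Nr1d1 from 0.22 to -0.49.

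Cultures of the same group were then compared with each other. Within EXO-Post BSA the median SD of the tested clock probes was 0.36, against 0.33 over all tested probes, and within EXO-Post Palm 0.29 against 0.32. Over the 7 arrays the median range was 1.04 for the clock probes and 1.06 for all. Single clock probes lay at both ends of the spread. Nr1d2 had ranges of 6.66 and 3.37, above 99.6% and 97.2% of all tested probes, and Arntl, at 1.57, stood above 76.4%. Per1, at 0.79, stood above 27.4%, Dbp (A_55_P2032079), at 0.67, above 16.7% and Cry2 (A_55_P1953708), at 0.48, above 4.39%.

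With the main scaling, more clock probes were lowest on EXO-Post BSA replicate 2 than on any other array. Of the 10 clock probes that were well above background on every array, 5 had their lowest value there, namely Per1, Cry2 (A_55_P2016540), Nr1d1 and both Dbp probes. The share was 8.29% of 21137 tested probes with a value on every array, a set with a looser filter than that of the 10. The array was singled out after the counts were seen. Relative to the probe's median over the 7 arrays these values were -0.37, -0.52, -0.55, -0.45 and -0.43. Arntl and Clock were above their medians on this array, by 0.33 and 0.41. The 2 Dbp probes read the same transcript and are not separate evidence. The pattern depended on the scaling. Subtracting the median of the array gave 6 of 10 probes lowest on EXO-Post BSA replicate 2, and quantile normalisation gave 5, but normexp background correction and the values deposited by the authors each gave 3, as many as on EXO-Post Palm replicate 3, with Per1 then lowest on EXO-Post BSA replicate 4 and Dbp (A_55_P2032079) on EXO-Post Palm replicate 3. Of 40 genes in the further clock lists described below that were well above background on every array, 9 were lowest on EXO-Post BSA replicate 2 and 2 to 7 on each other array. The 9 were Rorb, Timeless, Fbxw11, Sirt1, Tsc22d3 and the output genes Wee1, Ccrn4l, Tcap and Gys1. Other output genes were lowest elsewhere, such as Nampt, Cdkn1a and Pdk4 on EXO-Post Palm replicate 1 and Ucp3, Hk2 and Por on EXO-Post Palm replicate 3. This count was made with the main scaling only.

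**Figure D3:**
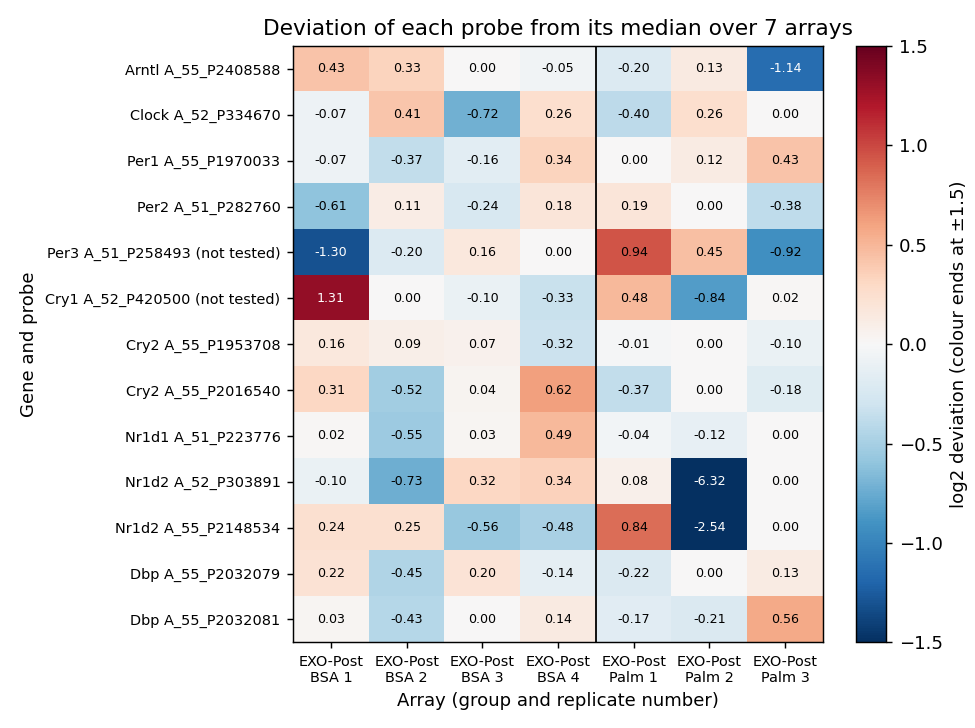
Difference of each clock probe (rows) on each array (columns) from the median of that probe over the 7 arrays, on the log2 scale, with the value printed in each cell and the colour ending at 1.5 on either side. The black line parts EXO-Post BSA (left) from EXO-Post Palm (right). EXO-Post BSA replicate 2 is blue for Per1, Nr1d1, both Dbp probes and Cry2 A_55_P2016540, and EXO-Post Palm replicate 2 is dark blue for both Nr1d2 probes, at -6.32 and -2.54.

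In a running clock Arntl peaks when Per1, Nr1d1 and Dbp are low, so Arntl was set against the brightest probe of each of the other 9 genes over the 7 arrays, in 9 relations. With Per1 it had a Pearson r of -0.71 (exact permutation p = 0.0565, adjusted p = 0.509 over the 9 relations) and a Spearman rho of -0.68 (exact permutation p = 0.110, adjusted p = 0.880). Without the 2 arrays farthest from the median of Arntl, EXO-Post Palm replicate 3 and EXO-Post BSA replicate 1, r was -0.56, and after subtraction of the group means it was -0.61. EXO-Post Palm replicate 3 held the lowest Arntl and the highest Per1, although Per1 was highest on EXO-Post BSA replicate 4 after subtraction of the array median and on EXO-Post Palm replicate 1 in the authors' values, and EXO-Post BSA replicate 2 the second highest Arntl and the lowest Per1. With Nr1d1, Nr1d2 and Dbp r was -0.23, -0.22 and -0.22, and with Clock, Per2, Per3, Cry1 and Cry2 it lay between 0.10 and 0.18 (adjusted p = 0.847 for each, exact permutation), Per3 and Cry1 being above background on 3 of the 7 arrays. The relation with Dbp turned to 0.68 with normexp correction and to 0.69 with the authors' values. None of the 9 passed the correction, and the slides held too few arrays for a value of their own.

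**Figure D4:**
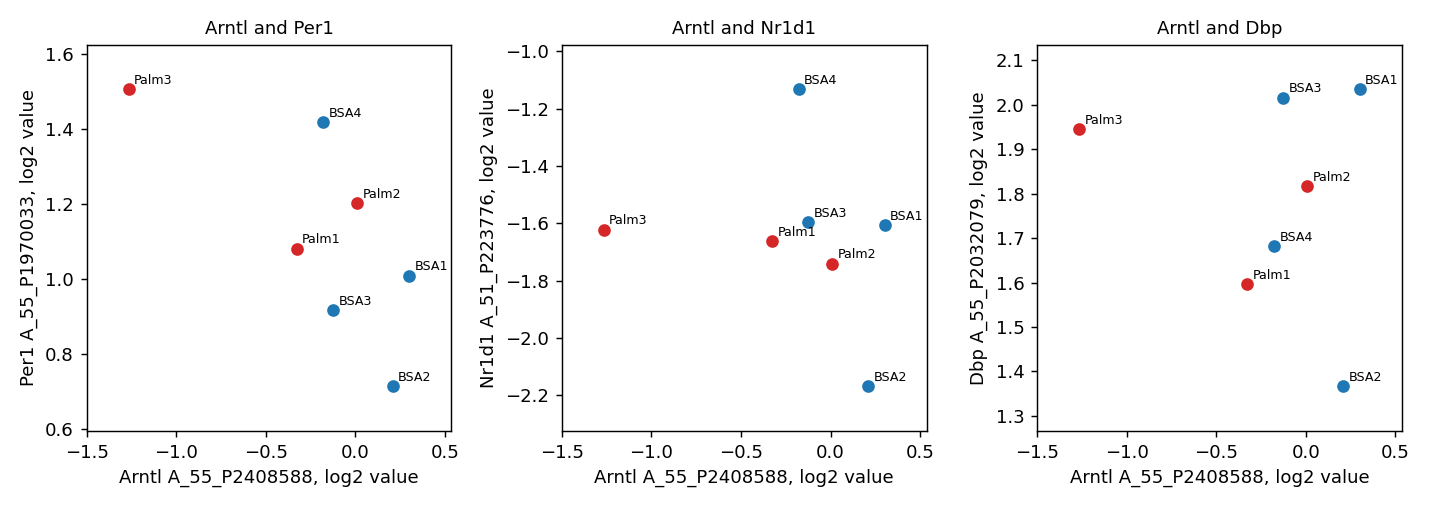
Log2 value of Arntl (x axis) against that of Per1, Nr1d1 and Dbp (y axis, brightest probe of each) on the 7 arrays, blue for EXO-Post BSA and red for EXO-Post Palm, each point named by group and replicate. With this scaling Per1 is highest where Arntl is lowest, on Palm3, with r = -0.71 over the 7 arrays, and r is -0.23 for Nr1d1 and -0.22 for Dbp.

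As a description, the probes most like Arntl over the 7 arrays were those of Sfrs8 (r = 0.985), Tmem38a (r = 0.980) and Stk36 (r = 0.971), and 229 of 21137 probes had an r above 0.9 with it. The probes most like Dbp were those of Slmo2 (r = 0.981), NAP061035-1 (r = 0.978) and Rnf19b (r = 0.976), with 47 above 0.9. None of these genes belongs to the clock lists used here, and with 7 arrays high values of r are common.

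Further genes around the clock were taken from 4 lists with 49 genes: other clock factors, modifiers of clock proteins, output genes and genes that answer resetting stimuli. Of these 42 were tested, each by its brightest probe, and 16 were higher and 26 lower in EXO-Post Palm, with a median log2 fold change of -0.08. Hlf was called at an adjusted p of 0.05 in limma, the 1 call among the 42, beside 0.533% of all tested probes. It had entered the test only through the EXO-Post Palm arrays, where it was high, so nothing is read from that count. At an unadjusted p under 0.05 in limma there were 5 higher and 1 lower, against 4.85% and 5.19% of all tested probes. The 5 include Hlf, so nothing is read from this count either. Npas2, Gm129 (now Ciart, a repressor of the loop) and Klf15 were not well above background on any array.

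Hlf encodes a relative of DBP that acts on the same D-box motifs. Its values were -3.85, -3.92, -4.26 and -4.60 on EXO-Post BSA and -1.87, -2.08 and -1.60 on EXO-Post Palm. The groups did not overlap, but the probe was well above background on 3 of 3 EXO-Post Palm and only 2 of 4 EXO-Post BSA arrays, so the EXO-Post BSA level and the size of the difference are uncertain. The log2 fold change was 2.31 (adjusted p = 0.0108 in limma), and 2.02 on slide 1 and 3.00 on slide 3. It was 1.93 (adjusted p = 0.0216) with the authors' values and 1.42 (adjusted p = 0.0378) with normexp background correction. With the filter that asked for all 7 arrays Hlf was not tested. The call was lost without EXO-Post BSA replicate 1 (adjusted p = 0.0565), EXO-Post BSA replicate 3 (adjusted p = 0.0518), EXO-Post Palm replicate 1 (adjusted p = 0.0621) or EXO-Post Palm replicate 3 (adjusted p = 0.0508), with log2 fold changes of 2.16 to 2.43 over the arrays left out. Hlf is also in a gene list that the study drew from these samples, so its call here is not independent evidence.

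In the same list of clock factors, Bhlhe40, a repressor that competes for E-boxes, had the largest fall among tested genes, at -0.38 (adjusted p = 0.600 in limma). Timeless, which in mammals takes part in DNA replication, had values of -1.44, -1.75, -1.45 and -1.70 on EXO-Post BSA and -0.52, -0.92 and -0.07 on EXO-Post Palm, and its log2 fold change was 1.08 (adjusted p = 0.139). It was named after its values were seen. The 11 tested modifiers of clock proteins had a median of -0.16. They ranged from the kinase Csnk1d, which phosphorylates PER proteins, at -0.49 (adjusted p = 0.601), to the deacetylase Sirt1 at 0.26 (adjusted p = 0.825).

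The 11 tested output genes had a median of -0.16, with Tspan4 at 0.85 (adjusted p = 0.247 in limma) and Por, which passes electrons to cytochrome P450 enzymes, at -0.63 (adjusted p = 0.555). The 11 tested resetting genes had a median of -0.08. Crem, a cAMP-responsive factor, stood at 0.89 (adjusted p = 0.503). Sik1, a kinase that limits resetting by light, read 0.87, 0.48, 0.50 and 1.54 on EXO-Post BSA and 1.31, -6.59 and 0.99 on EXO-Post Palm. As for Nr1d2, the low value was that of EXO-Post Palm replicate 2, and the log2 fold change went from -2.28 (adjusted p = 0.688) to 0.30 (adjusted p = 0.845) without it.

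**Figure D5:**
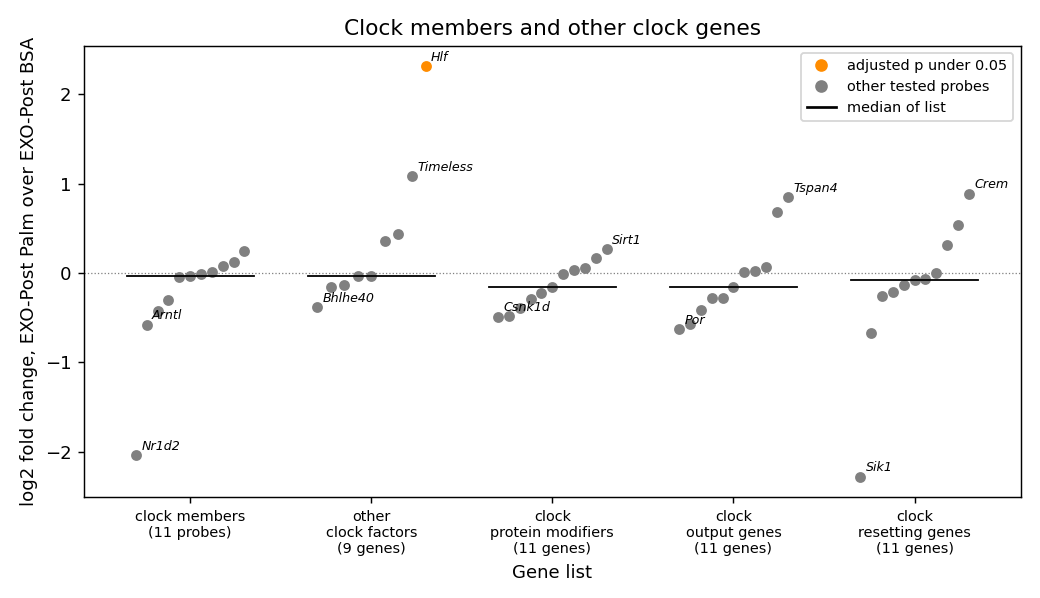
Log2 fold change of EXO-Post Palm over EXO-Post BSA (y axis) for the 11 tested probes of the clock members and for the tested genes of 4 further clock lists (x axis), with a point for each probe or gene and a line at the median of the list. Hlf, in orange at 2.31, is the only point with an adjusted p under 0.05, and the medians lie between -0.16 and -0.03.

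The cells expressed muscle genes on all arrays. All 14 muscle differentiation genes listed were well above background on the 7 arrays, with a median log2 fold change of -0.12 and a mean level of 4.41 to 4.62 on EXO-Post BSA and 4.28 to 4.53 on EXO-Post Palm. Of 10 genes of dividing cells, 9 were tested, and Aurkb was not well above background on any array. All 9 were higher in EXO-Post Palm, against 47.3% of all tested probes. An adjusted p under 0.05 in limma was reached by 6 of them, against 0.533% of all tested probes. The paper already reported cell cycle and mitosis genes as enriched among those raised on these arrays, so this is not independent evidence. For all 9, every EXO-Post Palm value lay above every EXO-Post BSA value, so leaving out an array could not change a sign. The number called with each array left out, an alternative chosen after seeing the data, was 0 when replicate 1 of either group was left out. Leaving out EXO-Post BSA replicate 2, 3 or 4 gave 3, 2 and 4 calls, and leaving out replicate 2 or 3 of EXO-Post Palm gave 8 and 2. Their mean level was -1.11 to -0.87 on EXO-Post BSA and 0.69 to 1.96 on EXO-Post Palm, the highest on EXO-Post Palm replicate 3, the array with the lowest Arntl. In such bulk RNA, fewer cells of a type and less RNA per cell cannot be told apart. Of the other cell types, 6 of 6 fibroblast, 3 of 5 leucocyte, 2 of 4 endothelial and 0 of 5 adipocyte genes were tested. None passed the adjusted threshold in limma, but some did not overlap between the groups, as was the case for 11.3% of all tested probes. These were Lum at 1.45 (adjusted p = 0.105) and Col1a1 at -1.64 (adjusted p = 0.0701) among fibroblast genes and Cd14 at 1.05 (adjusted p = 0.219) among leucocyte genes. Among the muscle genes, Des at 0.50 (adjusted p = 0.446), Myh3 at -0.46 (adjusted p = 0.512) and Myh8 at -0.65 (adjusted p = 0.304) did not overlap either. The mean level of the 3 tested leucocyte genes, Emr1, Csf1r and Cd14, was -1.74 to -1.49 on EXO-Post BSA and -1.12 to -0.53 on EXO-Post Palm. The other leucocyte genes, Ptprc and Cd68, were well above background on 2 and 1 of the 7 arrays. Of the endothelial genes, Pecam1 and Kdr were well above background on all 7 arrays, with log2 fold changes of -0.03 and -0.07. Cdh5 and Tek were not well above background on any array. The part of these cell types and of dividing cells in the values of Arntl, Hlf and Timeless was not tested.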

How the data were processed

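RNA of recipient C2C12 cells was measured on 1-colour Agilent mouse arrays, 4 for EXO-Post BSA and 3 for EXO-Post Palm, labelled as biological replicates. The cell line label of the samples counts up from C2C12 to C2C18, and all were taken as C2C12, as their source label says. The deposited scanner files hold a background-subtracted intensity per spot, not normalised between arrays, and the authors deposited a further table of log2 values, whose rows were joined to the spots by order (Spearman correlation with the same array's intensity at least 0.9936). Per the file headers the software was Feature Extraction 10.7.3.1, and 11.5.1.1 for EXO-Post BSA replicate 3, while the submitters' processing notes name 9.1. The settings behind the log2 table are not given in the sources used here.

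Log2 processed signals minus each array's 75th percentile over 43020 non-control spots were used, which lay between intensities of 549.4 and 1621. Control and marked spots were left out and spots of a probe were averaged. The arrays had 19125 to 27720 of 39429 probes well above background. Differences between groups were fitted over 21589 probes with limma 3.58.1 (R 4.3.3), 2-sided, with Benjamini-Hochberg adjustment over all of them. On simulated data with each probe's own spread, the fit called 13 of 100 changes of 1 log2 unit and 66 of 100 changes of 2 log2 units. There were 3 false calls among 82. A probe that was not called may therefore still have changed. Figures were drawn with matplotlib in Python. The number of arrays limits the precision.

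The clock genes and lists were chosen with earlier results of these data known. Named are all clock probes and, of the 4 further lists, genes past the threshold and the largest rise and fall of each, by the brightest probe. Marker lists were muscle differentiation, undifferentiated myoblast (5 of 6 genes tested, median log2 fold change 0.05), dividing cells, fibroblast, adipocyte, leucocyte and endothelial. Replicate numbers were not taken as pairs. Same-numbered arrays had correlations of deviations of 0.12, -0.15 and -0.15, too few values to settle whether the samples were paired. EXO-Post Palm replicates 1 and 3 were most like EXO-Post BSA replicates 2 and 4, which shared their slides. Normexp used the median in place of the mean foreground signal, which 1 file lacks. Alternatives covered normalisation, filter, slide, replicate block, weights, test and each array left out.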

Additional observations from a re-analysis of the deposited data

Results flagged for a closer look

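Among the 4 EXO-Post BSA arrays, a sample far from the others was looked for in the 13 clock probes and 9 named genes of the further lists, 22 in all, and 2 were found, neither a clock member. Chance gives about 1 in 20. Sirt1 was at -0.19 on EXO-Post BSA replicate 2 against 0.88 to 0.92 on the others, and Por was at 3.79 on EXO-Post BSA replicate 1 against 2.77 to 2.90.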

How the results depend on the processing

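The count of clock probes called was 0 under all 21 alternatives. In some of these no probe of the array was called, so the 0 could not have differed. These were no filter on dim probes, the replicate block, the methods' t-test after adjustment and EXO-Post BSA replicate 1 left out. In the other alternatives with an adjusted p, 7 to 202 of all tested probes were called. Of the other clock genes 1 was called. This became 0 without a filter on dim probes and in the methods' t-test after adjustment, where 0 of all tested probes were called. With the filter on all 7 arrays, where Hlf was not tested, it was 0, and 150 of all tested probes were called. At an unadjusted p it was 5 in the methods' t-test and 6 in limma, beside 2108 and 2169 of all 21589 tested probes. Hlf was among both, with the limit given above. The count was 0 to 1 with each array left out. With the replicate block it was also 0 (0 of all tested probes called), and Clock then stood at 0.0809, Nr1d1 at 0.12 and Dbp (A_55_P2032079) at -0.0201. The labels show only a shared number for these samples, so this says nothing of the size of an effect.

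Some folds changed sign under other settings, all uncalled. Most were near 0, but Nr1d2 and Sik1 were -2.04, -0.43 and -2.28 over all arrays. With slide as a block Cry2 (A_55_P1953708) was 0.0163, Nr1d2 0.13 and 0.55, and Sik1 0.13. Nr1d1 was 0.14 with normexp, 0.13 with the authors' values and 0.0555 with array weights. Dbp (A_55_P2032079) was -0.24 with normexp, -0.24 with the authors' values and -0.0483 with the median of each array. With each array left out the ranges were -0.24 to 0.16 for Clock, -0.0811 to 0.23 for Per2, -0.14 to 0.0165 for Cry2 (A_55_P1953708), -0.23 to 0.12 for Nr1d1, -3.12 to 0.0817 and -1.13 to 0.56 for Nr1d2, -0.13 to 0.11 and -0.13 to 0.26 for Dbp, -0.007 to 0.46 for Sirt1 and -3.65 to 0.30 for Sik1. Arntl stayed between -0.85 and -0.21 and Per1 between 0.13 and 0.38.

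The correlation of Arntl with Per2 was -0.0614 with normexp, -0.0197 with quantile normalisation and -0.0947 with the authors' values, and that with Dbp 0.68 and 0.69 with normexp and the authors' values. Without the 2 arrays farthest from the median of Arntl it was -0.15 for Per2, -0.71 for Per3, -0.41 for Cry1 and -0.34 for Cry2. With group means subtracted it was -0.10 for Cry2. With each array left out it ran from -0.0247 to 0.45 for Clock, -0.62 to 0.66 for Per2, -0.84 to 0.57 for Per3, -0.30 to 0.36 for Cry1, -0.0153 to 0.47 for Cry2, -0.48 to 0.0443 for Nr1d1 and -0.52 to 0.12 for Dbp, and from -0.82 to -0.48 for Per1. The causes were not tested. Signal over background limits Per3 and Cry1, and 7 arrays limit the others.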
